A study of Mus musculus with 6 samples.

Results

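In mouse pancreatic stellate cells (PSCs) cocultured with pancreatic ductal adenocarcinoma (PDAC) organoids, genes of the NF-kB subunits and of their inhibitors were higher at 1% O2 than at 21% O2. The 55 genes described here are the receptors, adaptors, kinases, ubiquitin enzymes, NF-kB subunits and inhibitory proteins of Toll-like receptor and NF-kB signaling, taken as a named list whose symbols were looked up by Ensembl identifier in GENCODE M21. All 55 were found among the 55426 features of the expression table, and 53 of them were among the 16207 genes with enough counts to be tested. At 1% O2, 22 of the 53 were higher than at 21% O2 and 2 were lower, at a fold change beyond 1.5 and an edgeR adjusted p under 0.05. Over all 16207 genes 18.9% were called higher and 15.3% lower by the same rule, 34.2% in all, so the members called higher (41.5%) stood above that background and those called lower (3.77%) below it. The median log2 fold change was 0.40 over the 53 members and 0.00 over all genes tested. Without normoxic replicate 2, which held the most RNA of leukocyte markers, the counts were again 22 and 2. The remaining normoxic samples still held more of this RNA than any hypoxic sample, so its part in the calls was not tested. The genes called higher included all NF-kB subunits except Rel, all IkB proteins except Nfkbib, and the feedback inhibitor Tnfaip3. Of the 10 receptors tested 1 was called higher (10%) and 2 lower (20%), shares near those of all genes, and 1 of these calls, that of Tlr1, was lost without hypoxic replicate 3.

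The cells were primary PSCs, which are lipid-storing fibroblast precursors of the pancreas, isolated from wild-type C57BL/6 mice of 8 to 12 weeks and used as primary lines of early passage. They were kept in Matrigel on a transwell insert above organoids of mT3, a mouse PDAC line derived from a primary tumor. Normoxic cocultures stayed at 21% O2 and hypoxic cocultures at 1% O2, each for 48 h and each with 3 samples, and the tumor organoids were therefore present in both groups. RNA of the PSC compartment was sequenced. The sources used here do not state that the samples of a group came from separate PSC lines, so the p-values measure only the spread between these samples, which may be technical.

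Toll-like receptors are membrane proteins that recognize microbial and damage-derived molecules at the cell surface or in endosomes, and Nod1 and Nod2 do the same for bacterial cell wall fragments in the cytosol. Engaged receptors recruit adaptors such as Myd88, which assemble IRAK kinases and TRAF ubiquitin ligases into a platform that activates the TAK1 and IKK kinases. In the canonical arm IKK phosphorylates IkB proteins, which are then degraded and release dimers such as Rela with Nfkb1. In the noncanonical arm the kinase Map3k14 (NIK) and Chuk (IKK-alpha) drive the processing of Nfkb2, which then acts with Relb. Several of the inhibitors, among them Nfkbia, Tnfaip3 and Nfkbie, and several subunits are themselves known NF-kB target genes, which gives the pathway its feedback. In fibroblasts the same pathway is known for cytokine and chemokine expression in response to IL-1, TNF and microbial products.

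Library totals lay between 24749601 and 25914892 counts in normoxic samples and between 25847719 and 31925054 counts in hypoxic samples, and levels are given as CPM, which are counts relative to the TMM-scaled total of the library. In these libraries 3 counts, used here as the floor of detection, correspond to 0.0943 to 0.122 CPM, a limit that covers counting error only. Fibroblast markers were abundant in every sample, with a summed level over 12 genes of 33907 to 43893 CPM in normoxic and 43569 to 49546 CPM in hypoxic samples. The 22 macrophage and leukocyte markers were also present in every sample, none at or under the floor throughout. Their summed level was 1243, 2201 and 1748 CPM in normoxic replicates 1 to 3 and 654, 1196 and 804 CPM in hypoxic replicates 1 to 3. All 3 hypoxic sums were below all 3 normoxic sums, and 15 of the 21 that could be tested were called lower and 0 higher. In bulk samples such as these, fewer cells of a type and less RNA per cell cannot be told apart. Of the 8 epithelial markers, Epcam, Cdh1 and Cldn4 did not exceed 3 counts in any sample. The summed epithelial level was 3.23 to 5.31 CPM in normoxic and 24.98 to 28.9 CPM in hypoxic samples, of which Krt19 had 12 to 27 counts and 525 to 760 counts. The summed level of 8 endothelial markers was 15.7 to 21.8 CPM in normoxic and 21.8 to 30.9 CPM in hypoxic samples, and of the 7 tested 2 were called higher and 2 lower. Gene positions below are from GENCODE M21 on GRCm38.

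**Figure D1:**
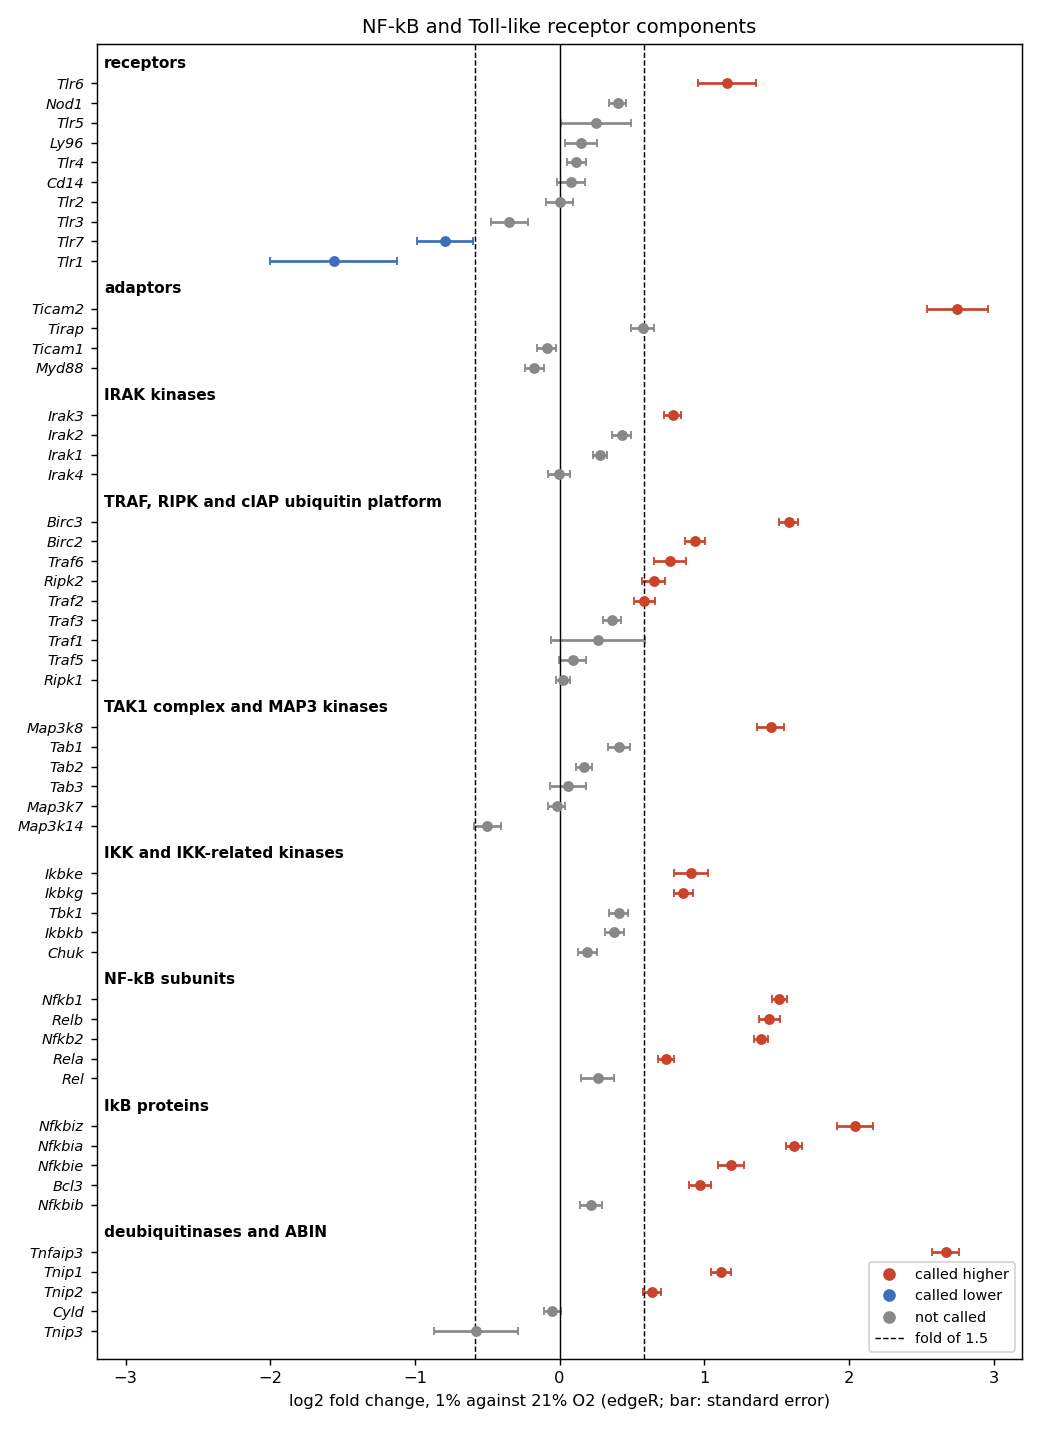
Log2 fold change of the 53 tested members at 1% against 21% O2, one point per gene with its standard error from edgeR, ordered by role in the pathway. The NF-kB subunits and IkB proteins all lie to the right of 0, while the receptors, TAK1 complex and adaptors lie on both sides of it.

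As a description of sequences that these genes carry, the promoters of 43 of the 55 members were found in RefSeq (GRCm38.p6), as windows of 250 bases before to 50 bases after the annotated start. The NF-kB motif in its general form, read on both strands and with overlapping matches counted in the same promoter once, was present in 15 of the 58 member promoters (25.9%), which belonged to 13 genes. It was present in 4.51% of all 32851 promoters in the table and in 5.28% of those of the tested genes. Among the members, it was in 8 of 25 promoters of genes called higher (32%), 0 of 2 promoters of the 1 gene called lower that has an entry, and 7 of 31 promoters of the others (22.6%), so the motif was frequent in members with and without a change. The hypoxia response core ACGTG was in 17.2% of the member promoters, in 19.6% of all promoters and in 24.8% of those of the tested genes, and the related GCGTG was in 46.6% of the member promoters, 32.4% of all promoters and 48.8% of those of the tested genes. A match is only a string of letters and is no evidence that a factor binds there.

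The 250 bases before the start are shown for 3 inhibitors that were called higher and carry the motif there, and for Cyld, a deubiquitinase that carries it and was not called. Tnfaip3 carries it too, 2 and 115 bases before the start, but its window overlaps an annotated exon of the gene and is not shown. They read 5′ to 3′ on the strand of the gene, with the NF-kB motif in capitals. The Nfkbia window is at chr12:55492648-55492897 (minus strand), that of Tnip1 at chr11:54962941-54963190 (minus strand), that of Nfkbie at chr17:45555450-45555699 (plus strand) and that of Cyld at chr8:88696778-88697027 (plus strand).
Nfkbia: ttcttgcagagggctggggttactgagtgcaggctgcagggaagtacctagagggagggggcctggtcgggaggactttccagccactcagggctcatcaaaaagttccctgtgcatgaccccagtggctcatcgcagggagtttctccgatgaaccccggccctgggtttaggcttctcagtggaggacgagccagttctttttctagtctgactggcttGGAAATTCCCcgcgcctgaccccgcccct
Tnip1: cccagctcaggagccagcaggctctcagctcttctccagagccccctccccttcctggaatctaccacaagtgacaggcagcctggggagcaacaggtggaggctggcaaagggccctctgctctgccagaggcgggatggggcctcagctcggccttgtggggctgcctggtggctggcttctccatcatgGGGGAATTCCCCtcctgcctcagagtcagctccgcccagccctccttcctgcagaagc
Nfkbie: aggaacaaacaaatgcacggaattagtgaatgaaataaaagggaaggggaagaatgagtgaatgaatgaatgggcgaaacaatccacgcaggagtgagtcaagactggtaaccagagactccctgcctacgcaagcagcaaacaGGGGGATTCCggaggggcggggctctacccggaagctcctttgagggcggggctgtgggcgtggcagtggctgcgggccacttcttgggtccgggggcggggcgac
Cyld: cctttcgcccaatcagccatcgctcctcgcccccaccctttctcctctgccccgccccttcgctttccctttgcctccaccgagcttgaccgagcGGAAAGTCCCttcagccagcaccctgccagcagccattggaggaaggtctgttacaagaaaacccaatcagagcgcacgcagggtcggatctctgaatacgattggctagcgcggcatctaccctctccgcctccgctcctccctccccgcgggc
Between the motif and the RefSeq start lie 19 bases in Nfkbia, 96 in Nfkbie and 145 in Cyld. In Tnip1 the letters form 3 overlapping matches, 46 to 48 bases from the start.

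Of the 12 receptors and co-receptors, 10 could be tested, of which Tlr6 was called higher and Tlr1 and Tlr7 were called lower. Their median log2 fold change was 0.10. Tlr9, the endosomal sensor of unmethylated DNA, had 3, 4 and 7 counts at 21% O2 and 3, 7 and 6 counts at 1% O2, and Nod2, a sensor of muramyl dipeptide, had 12, 6 and 8 counts at 21% O2 and 7, 9 and 4 counts at 1% O2, and neither passed the count filter. The abundance of the 8 Toll-like receptors together, as summed CPM per kilobase of exon, was 17.2 ± 0.434 in normoxic and 17.2 ± 0.955 in hypoxic samples (mean ± SD, n = 3 each).

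Tlr1 and Tlr6 each pair with Tlr2 to bind bacterial lipopeptides, and they went in opposite directions. Tlr6 (ENSMUSG00000051498, chr5:64952031-64960097, minus strand) measured 1.23, 1.63 and 1.42 CPM at 21% O2 and 2.87, 3.64 and 3.05 CPM at 1% O2. Every hypoxic sample was above every normoxic one (log2 fold change 1.16, SE 0.20, edgeR adjusted p = 0.000828). Tlr1 (ENSMUSG00000044827, chr5:64924679-64933563, minus strand) had 21, 65 and 47 counts at 21% O2 and 10, 26 and 16 counts at 1% O2, or 0.808, 2.47 and 1.91 CPM at 21% O2 and 0.393, 0.830 and 0.503 CPM at 1% O2. The groups overlapped, since normoxic replicate 1 lay below hypoxic replicate 2 (log2 fold change -1.56, SE 0.44, edgeR adjusted p = 0.0120). This call rested on few counts: without hypoxic replicate 3 the log2 fold change of Tlr1 was -1.47 with an edgeR adjusted p of 0.0518, and without normoxic replicate 2, the library richest in leukocyte markers, it was -1.21 with 0.0397. Over its 15 alternatives the adjusted p ran from 0.00121 to 0.0518. Tlr1 and Tlr6 are neighbouring genes of similar sequence that can share reads, and the sum of their counts had a log2 fold change of 0.26 (SE 0.25, edgeR adjusted p = 0.395). Their common partner Tlr2 measured 13.2, 15.6 and 13.1 CPM at 21% O2 and 13.6, 14.8 and 13.5 CPM at 1% O2, and its log2 fold change was 0.00 (SE 0.10).

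Tlr7, an endosomal receptor for single-stranded RNA, measured 4.54, 6.87 and 6.13 CPM at 21% O2 and 2.75, 3.80 and 3.55 CPM at 1% O2. All hypoxic samples were below all normoxic samples (log2 fold change -0.79, edgeR adjusted p = 0.00614), and without normoxic replicate 2 the log2 fold change was -0.66 with an adjusted p of 0.0177 (0.000754 to 0.0230 over 16 alternatives). Tlr7 is known for its expression in macrophages and other leukocytes, and both receptors called lower moved in the direction of the leukocyte markers above, the summed level of which was highest in normoxic replicate 2, as were the levels of Tlr1 and Tlr7. The part of leukocyte RNA in these receptor differences was not tested.

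The lipopolysaccharide receptor complex was present without a call. Tlr4, its signaling chain, was the most abundant Toll-like receptor per kilobase and made up 46.8% ± 3.79 at 21% O2 and 50.6% ± 0.560 at 1% O2 of the summed level of the 8 Toll-like receptors. Its log2 fold change was 0.12, that of its co-receptor Ly96 (MD-2) was 0.15 and that of Cd14, which hands lipopolysaccharide to the complex, was 0.08. The remaining Toll-like receptors were Tlr3, which senses double-stranded RNA, at -0.35 (edgeR adjusted p = 0.0396, below the fold threshold), and Tlr5, the flagellin receptor, at 0.25. Within the same sum, Tlr6 took 2.23% ± 0.259 at 21% O2 and 4.96% ± 0.374 at 1% O2, Tlr1 took 2.98% ± 1.41 at 21% O2 and 0.988% ± 0.338 at 1% O2 and Tlr7 took 8.32% ± 1.499 at 21% O2 and 4.78% ± 0.540 at 1% O2.

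Nod1, the cytosolic sensor of a peptidoglycan fragment of mainly Gram-negative bacteria, was the most abundant receptor per kilobase. It measured 124, 131 and 134 CPM at 21% O2 and 175, 161 and 179 CPM at 1% O2. The groups did not overlap, but the difference was below the fold threshold (log2 fold change 0.40, SE 0.060, edgeR adjusted p = 0.000352).

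**Figure D2:**
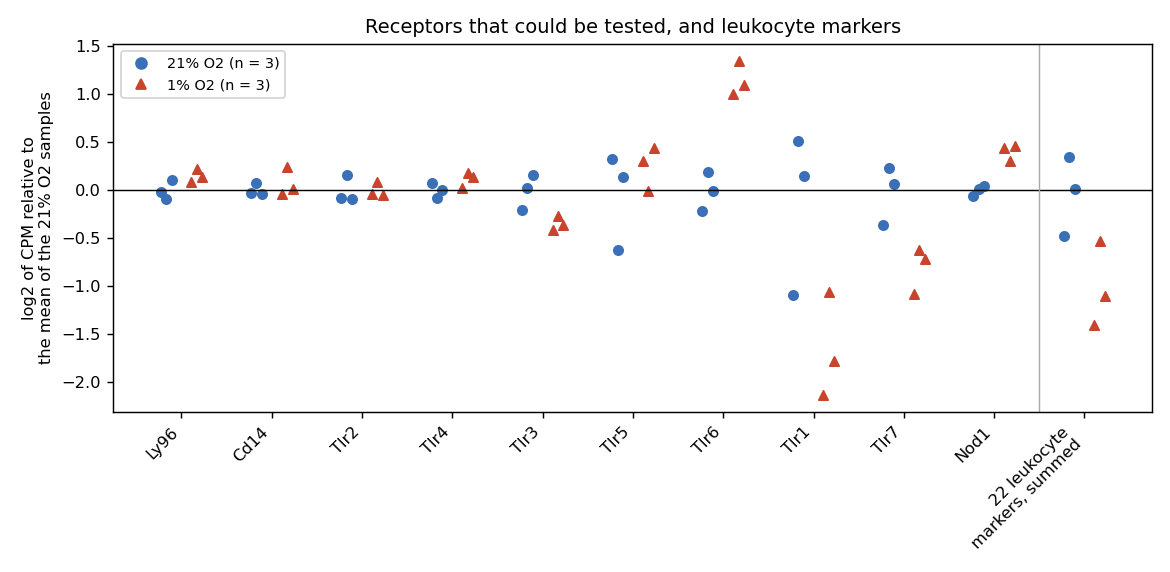
Level of each tested receptor in each sample relative to the mean of the 21% O2 samples, on a log2 scale of CPM, with the summed leukocyte markers at the right. Tlr6 lies above 0 in all 3 hypoxic samples, Tlr7 and the leukocyte markers lie lower in the hypoxic than in the normoxic samples, and Tlr2 and Tlr4 overlap.

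Among the 4 adaptors, which carry the signal from the receptor to the kinases, Ticam2 was called and the others were not. Ticam2 (TRAM), which bridges Tlr4 to Ticam1 in endosomes, had 20, 29 and 28 counts at 21% O2 and 185, 236 and 175 counts at 1% O2, or 0.770, 1.10 and 1.14 CPM at 21% O2 and 7.26, 7.53 and 5.50 CPM at 1% O2. No samples overlapped, and the log2 fold change was close to that of Tnfaip3 below (log2 fold change 2.75, SE 0.21, edgeR adjusted p = 6.53e-06). Ticam2 shares its locus and strand with Tmed7, a gene of the secretory pathway with 3143 to 3720 counts per sample, and the assignment of reads between them is uncertain. The summed counts of Ticam2 and Tmed7 had a log2 fold change of -0.03 (edgeR adjusted p = 0.663). Myd88, the adaptor of most Toll-like receptors and of the IL-1 receptor, was the most abundant adaptor per kilobase and measured 63.2, 70.6 and 62.4 CPM at 21% O2 and 59.4, 59.5 and 55.0 CPM at 1% O2. Every hypoxic sample was below every normoxic one, by a small fold (log2 fold change -0.18, SE 0.065, edgeR adjusted p = 0.0407). In 4 of the 6 fits with a replicate left out the adjusted p of Myd88 was 0.062 to 0.151. The adaptor Tirap, which brings Myd88 to the membrane, lay just outside the fold threshold at 0.57 (edgeR adjusted p = 0.000205). Without normoxic or hypoxic replicate 3 it was called, at 0.62 and 0.61. Ticam1 (TRIF) had a log2 fold change of -0.09.

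The IRAK kinases act directly below Myd88. Irak3 (IRAK-M), which is known to restrain rather than pass on the signal, was the IRAK gene called higher, with a log2 fold change of 0.78 (edgeR adjusted p = 6.48e-06). It overlaps Tmbim4 on the opposite strand, which had a log2 fold change of -0.09. Irak1, the most abundant of them per kilobase, measured 132, 129.9 and 130.1 CPM at 21% O2 and 159, 154 and 162 CPM at 1% O2. Its groups did not overlap, with a difference below the fold threshold (log2 fold change 0.28, SE 0.048, edgeR adjusted p = 0.000905). Irak2 was at 0.43 (adjusted p = 0.000413 by edgeR) and Irak4, the kinase that phosphorylates Irak1, was at 0.00.

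The ubiquitin platform of TRAF, RIPK and cIAP proteins had 5 of its 9 genes called higher (55.6%) and 0 lower, with a median log2 fold change of 0.59. Over all genes, 18.9% were called higher and 15.3% lower. Birc3 (cIAP2, ENSMUSG00000032000, chr9:7848699-7873186, minus strand) measured 16.7, 17.1 and 17.6 CPM at 21% O2 and 48.4, 53.9 and 51.9 CPM at 1% O2. Birc2 (cIAP1, ENSMUSG00000057367, chr9:7818227-7837064, minus strand), the most abundant gene of this role per kilobase, measured 26.2, 28.049 and 27.1 CPM at 21% O2 and 52.6, 47.8 and 55.4 CPM at 1% O2. Both genes encode ubiquitin ligases that modify Ripk1 and keep NIK low, and neither overlapped between the groups. The log2 fold change of Birc3 was 1.58 (SE 0.064, edgeR adjusted p = 1.57e-07) and that of Birc2 was 0.94 (SE 0.069, edgeR adjusted p = 5.11e-06). They are neighbouring paralogs, and their summed counts had a log2 fold change of 1.22 (edgeR adjusted p = 2.24e-07). Traf6, the ligase used by IRAK complexes, was higher at 0.77, as was Ripk2, the kinase below Nod1 and Nod2, at 0.65. Traf2, the partner of the cIAP proteins, lay just inside the threshold at 0.59 and was not called in 7 of the alternatives that kept the fold threshold of 1.5, with values of 0.52 to 0.58 there, among them 0.52 without normoxic replicate 3 and 0.56 without hypoxic replicate 1. Traf3, which holds NIK for degradation, was at 0.36, Traf1 at 0.27, Traf5 at 0.09 and Ripk1 at 0.03, none of them called.

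Of the 6 genes of the TAK1 complex and the MAP3 kinases, 1 was called higher (16.7%, near the 18.9% of all genes) and 0 lower. Map3k8 (Tpl2), a kinase that is bound and held by the Nfkb1 precursor and acts on the ERK pathway, measured 6.39, 6.38 and 7.06 CPM at 21% O2 and 17.1, 19.2 and 18.2 CPM at 1% O2. The samples did not overlap (log2 fold change 1.46, SE 0.092, edgeR adjusted p = 1.91e-06). Map3k7, which encodes TAK1 itself, was at -0.02, and its partners Tab1 and Tab3 were at 0.41 and 0.06. Tab2, which binds ubiquitin chains and was the most abundant gene of this role per kilobase, measured 106, 99.2 and 110.1 CPM at 21% O2 and 120.5, 115 and 119 CPM at 1% O2 (log2 fold change 0.17, SE 0.056, edgeR adjusted p = 0.0248). Map3k14, the NIK kinase of the noncanonical arm, was the gene of this role with the lowest log2 fold change. It measured 18.4, 17.004 and 17.5 CPM at 21% O2 and 14.2, 11.7 and 11.7 CPM at 1% O2, with no overlap and a difference inside the fold threshold (log2 fold change -0.50, edgeR adjusted p = 0.00165). Without hypoxic replicate 1 it was -0.59 and called lower.

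All 5 IKK and IKK-related kinase genes had an adjusted p under 0.05 in the higher direction, against 31.8% of all genes. Of the 5, 2 passed the fold threshold (40%, against 18.9% of all genes). For Chuk the adjusted p was 0.054 to 0.105 in 4 of the 6 fits with a replicate left out. Ikbke (IKK-epsilon) had a log2 fold change of 0.91 (edgeR adjusted p = 0.000160). Ikbkg (NEMO), the regulatory subunit of the IKK complex, measured 67.2, 57.7 and 62.2 CPM at 21% O2 and 115, 113 and 110.4 CPM at 1% O2 (log2 fold change 0.86, edgeR adjusted p = 5.23e-06). It overlaps G6pdx on the opposite strand, which was lower at -1.04, and the summed counts of both had a log2 fold change of -0.19 (edgeR adjusted p = 0.0187). The strand setting of the counting is not stated, so a division of reads between them cannot be checked from the counts. Tbk1, an IKK-related kinase of the interferon branch and the most abundant of the 5 per kilobase, measured 42.3, 48.4 and 45.1 CPM at 21% O2 and 60.6, 57.8 and 61.8 CPM at 1% O2 (log2 fold change 0.41, SE 0.064, edgeR adjusted p = 0.000472). The catalytic IKK subunits Ikbkb and Chuk were at 0.38 and 0.19.

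The NF-kB subunits had the highest median log2 fold change of the 9 roles, 1.39. Of the 5, 4 were called higher (80%, against 18.9% of all genes). Nfkb1 (ENSMUSG00000028163, chr3:135584655-135691547, minus strand), the p105 precursor of p50, measured 61.0, 64.6 and 61.1 CPM at 21% O2 and 179, 181 and 175 CPM at 1% O2. Nfkb2 (ENSMUSG00000025225, chr19:46304320-46312385, plus strand), the p100 precursor of p52, measured 45.2, 47.4 and 47.8 CPM at 21% O2 and 122, 122 and 125 CPM at 1% O2. Relb (ENSMUSG00000002983, chr7:19606217-19629438, minus strand), the partner of p52, measured 23.985, 26.9 and 29.0 CPM at 21% O2 and 71.2, 73.3 and 73.5 CPM at 1% O2. In each of these genes the lowest hypoxic sample was above the highest normoxic sample by more than the whole range within either group. The log2 fold changes were 1.52 for Nfkb1 (SE 0.051, edgeR adjusted p = 6.94e-08), 1.39 for Nfkb2 (SE 0.051, edgeR adjusted p = 8.73e-08) and 1.45 for Relb (SE 0.072, edgeR adjusted p = 4.79e-07). Nfkb2 overlaps Psd on the opposite strand, which was higher at 1.19, and the sum of both had a log2 fold change of 1.36.

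Rela (ENSMUSG00000024927, chr19:5637483-5648130, plus strand), the p65 subunit with a transactivation domain and the most abundant subunit per kilobase, measured 63.9, 62.0 and 67.8 CPM at 21% O2 and 104, 112 and 107 CPM at 1% O2. It was higher without overlap but by a smaller fold (log2 fold change 0.74, SE 0.057, edgeR adjusted p = 6.30e-06). Rel (c-Rel), best known from lymphocytes, had a log2 fold change of 0.26 (edgeR adjusted p = 0.0728) and was not called. The summed level of the 5 subunits was 44.0 ± 1.66 CPM per kilobase in normoxic and 96.2 ± 1.63 in hypoxic samples, a ratio of 2.19. As a share of that sum, Rela made up 47.8% ± 1.296 at 21% O2 and 36.4% ± 0.786 at 1% O2 (mean ± SD, n = 3 each), so it was the most abundant subunit in both groups. The share of Nfkb2 was 23.2% ± 0.488 at 21% O2 and 27.9% ± 0.630 at 1% O2, that of Relb 15.6% ± 0.941 at 21% O2 and 19.4% ± 0.148 at 1% O2 and that of Nfkb1 11.8% ± 0.631 at 21% O2 and 15.4% ± 0.327 at 1% O2. Rel made up 1.66% ± 0.0504 at 21% O2 and 0.909% ± 0.0326 at 1% O2, and the shares of Rela and Rel were smaller in every hypoxic sample than in every normoxic one.

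**Figure D3:**
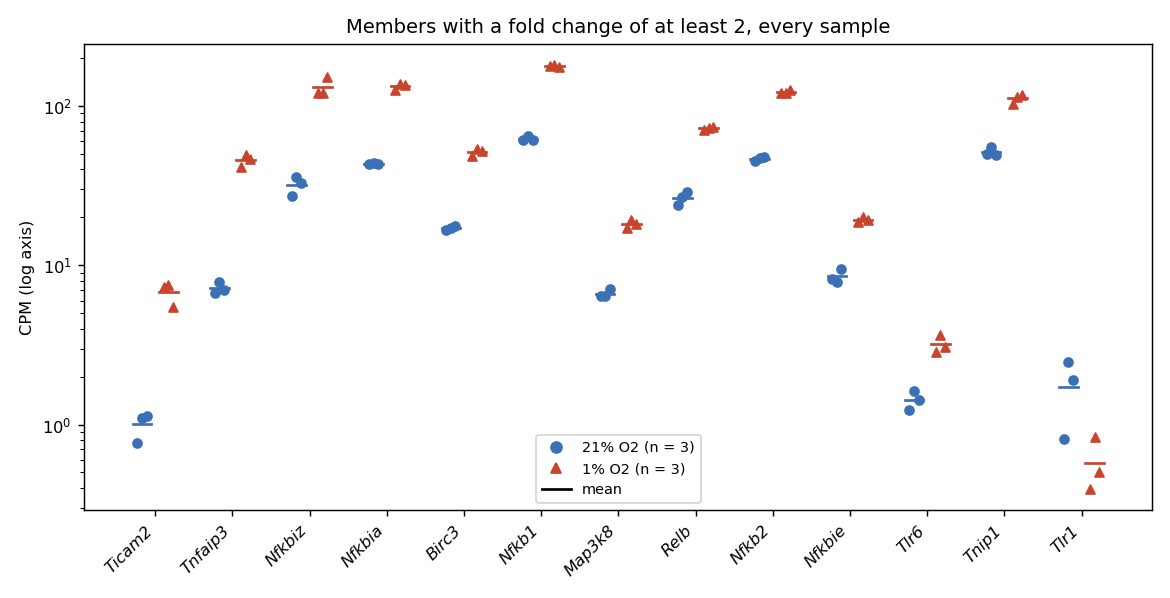
CPM in each sample, on a log axis, of the members whose fold change was at least 2, with 3 points per group and the group means. The hypoxic samples lie above the normoxic ones in every gene shown except Tlr1, whose groups overlap.

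The IkB proteins hold NF-kB dimers in the cytoplasm or, as the atypical members Nfkbiz and Bcl3, act with them in the nucleus. Of the 5 genes, 4 were called higher (80%, against 18.9% of all genes). Nfkbia (IkB-alpha, ENSMUSG00000021025, chr12:55489410-55492647, minus strand), the most abundant of all 55 members per kilobase, measured 43.0, 43.7 and 43.3 CPM at 21% O2 and 126, 138 and 135 CPM at 1% O2. The normoxic samples lay within 1 CPM of each other and the hypoxic samples were all well above them (log2 fold change 1.62, SE 0.056, edgeR adjusted p = 6.94e-08). Nfkbiz (IkB-zeta, ENSMUSG00000035356, chr16:55811375-55838899, minus strand), a coactivator for secondary-response genes such as Il6 and Lcn2, measured 27.1, 36.0 and 32.8 CPM at 21% O2 and 121, 121 and 153 CPM at 1% O2. It had the largest fold of the 5, without overlap (log2 fold change 2.04, SE 0.12, edgeR adjusted p = 1.505e-06). Nfkbie (IkB-epsilon, ENSMUSG00000023947, chr17:45555703-45563169, plus strand), a late inhibitor, measured 8.24, 7.86 and 9.49 CPM at 21% O2 and 18.8, 20.1 and 19.3 CPM at 1% O2 (log2 fold change 1.19, SE 0.093, edgeR adjusted p = 7.32e-06). Bcl3, which acts on p50 and p52 dimers, was higher at 0.97 (edgeR adjusted p = 5.73e-06), and Nfkbib (IkB-beta) was at 0.22 (edgeR adjusted p = 0.0312), within the fold threshold. The summed IkB level was 60.5 ± 2.34 CPM per kilobase in normoxic and 156 ± 8.59 in hypoxic samples, a ratio of 2.58. Nfkbia made up 44.5% ± 1.56 at 21% O2 and 52.9% ± 1.25 at 1% O2 of it, and Nfkbiz 10.5% ± 1.19 at 21% O2 and 16.8% ± 1.80 at 1% O2. The share of Bcl3 was 26.3% ± 1.19 at 21% O2 and 19.9% ± 0.243 at 1% O2 and that of Nfkbib 14.1% ± 0.237 at 21% O2 and 6.34% ± 0.433 at 1% O2. Both of these were smaller shares at 1% O2, of a sum that was larger. Nfkbie had a small share of 4.63% ± 0.389 at 21% O2 and 4.08% ± 0.167 at 1% O2.

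The deubiquitinase and ABIN genes, whose products take down or bind the ubiquitin chains of the platform, had 3 of 5 called higher. That is 60%, against 18.9% of all genes. Tnfaip3 (A20, ENSMUSG00000019850, chr10:19000910-19015657, minus strand), a ubiquitin-editing enzyme that ends signaling, measured 6.74, 7.86 and 7.02 CPM at 21% O2 and 41.4, 49.4 and 46.7 CPM at 1% O2. The lowest hypoxic sample was more than 5 times the highest normoxic one (log2 fold change 2.67, SE 0.094, edgeR adjusted p = 7.85e-08). Tnip1 (ABIN1, ENSMUSG00000020400, chr11:54910785-54962917, minus strand), which recruits A20 to ubiquitin chains and was the most abundant gene of this role per kilobase, measured 49.9, 55.6 and 49.3 CPM at 21% O2 and 104, 115 and 117 CPM at 1% O2 (log2 fold change 1.12, SE 0.070, edgeR adjusted p = 1.81e-06), and Tnip2 was higher at 0.64 (edgeR adjusted p = 3.21e-05). Tnip3 was low, with 32, 20 and 22 counts at 21% O2 and 15, 24 and 18 counts at 1% O2 and groups that overlapped (log2 fold change -0.58, edgeR adjusted p = 0.112). Cyld, the other deubiquitinase, was at -0.05.

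Called members were found in both arms of the pathway. Of 16 genes assigned to the canonical arm 6 were called higher (37.5%, against 18.9% of all genes) and 0 lower (against 15.3%), with a median log2 fold change of 0.33. Of 8 genes assigned to the noncanonical arm 5 were called higher (62.5%) and 0 lower, with a median of 0.76. These 5 were Nfkb2, Relb, Traf2 and the cIAP genes Birc2 and Birc3, whose products keep NIK low. The kinase genes of this arm, Map3k14 (-0.50) and Chuk (0.19), were not called, nor was Traf3 (0.36). Of 13 genes assigned to inhibitory feedback 9 were called higher (69.2%) and 0 lower, with a median of 0.97. The 9 were Irak3, Nfkbia, Nfkbie, Nfkbiz, Bcl3, Tnfaip3, Tnip1, Tnip2 and Birc3. This assignment is broad, since Nfkbiz, Bcl3 and Birc3 have the other roles given above. The sets share genes: Nfkbia, Nfkbib and Nfkbie are also in the canonical set, and Birc3 is also in the noncanonical set. These 3 sets hold genes chosen with earlier results of these data known, and the differences between them were not tested. At any fold, 33 members had an adjusted p under 0.05 in the higher direction and 5 in the lower, against 31.8% and 31% of all genes and 62.7% in either direction. Of these 38, Tlr1, Tlr3, Myd88, Tab2, Chuk and Nfkbib had an adjusted p above 0.05 in at least 1 of the fits with a replicate left out, with adjusted p up to 0.151. At a fold of at least 2, 12 members were higher, against 11.9% of all genes, and 1 was lower, against 7.57% of all genes. In 34 of the 53 members every hypoxic sample was above every normoxic one, against 34.9% of all genes, and in 4 every hypoxic sample was below, against 34% of all genes.

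Ratios between members of the same sample put the arms side by side without any scaling between libraries. On the scale of log2 CPM per kilobase, the ratio of Relb to Rela was -1.75, -1.54 and -1.57 at 21% O2 and -0.88, -0.95 and -0.88 at 1% O2, higher by 0.72 on average with no overlap. The ratio of Nfkb2 to Nfkb1 was 0.96, 0.95 and 1.04 at 21% O2 and 0.84, 0.82 and 0.91 at 1% O2, a mean difference of -0.12, again with no overlap. The inhibitor Nfkbia was higher relative to Rela by 0.88, Tnfaip3 relative to Ikbkb by 2.29 and Birc3 relative to Birc2 by 0.65, each without overlap between the groups. The ratio of Tlr2 to Tlr4 overlapped, with a difference of -0.11 (two-sided exact permutation p = 0.6). For the other 5 ratios the two-sided exact permutation p was 0.1, which is the smallest that 3 samples against 3 allow, and 0.12 after Benjamini-Hochberg adjustment over the 6 ratios.

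**Figure D4:**
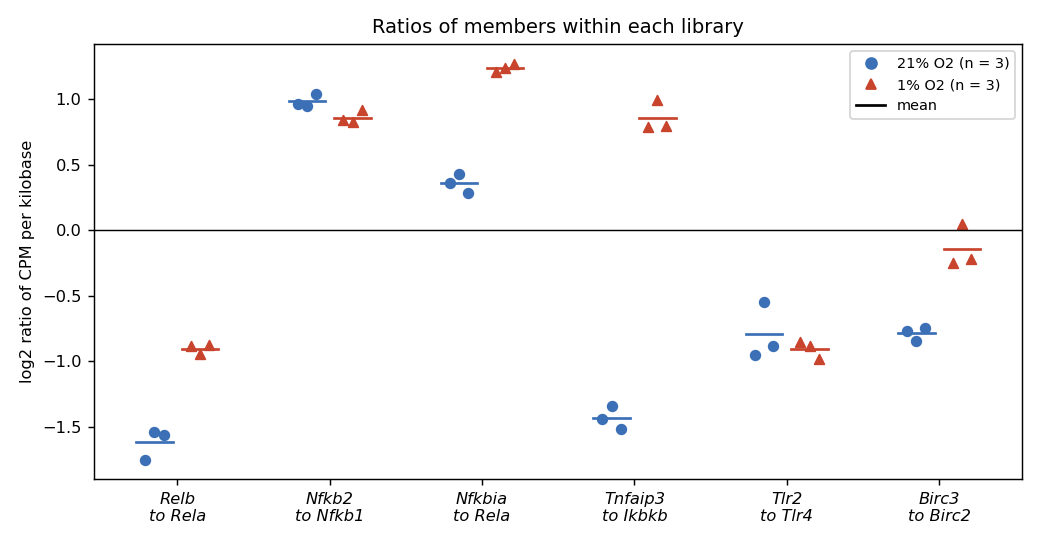
Log2 ratios of CPM per kilobase between pairs of members within each sample, with 3 points per group. The ratios of Relb to Rela, Nfkbia to Rela, Tnfaip3 to Ikbkb and Birc3 to Birc2 are higher in all hypoxic samples, that of Nfkb2 to Nfkb1 is lower, and that of Tlr2 to Tlr4 overlaps.

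In 3 lists of surrounding genes that are not members, the share called higher was 10%, 12.8% and 11.1%, against 18.9% of all genes, and the share called lower was 26.7%, 12.8% and 22.2%, against 15.3% of all genes. Of 34 other Toll-like and IL-1 receptor pathway genes, 30 could be tested, of which 3 were called higher and 8 lower (median log2 fold change -0.10). Without hypoxic replicate 3, 5 of them were called lower. The 3 called higher were Il1rl1, the IL-33 receptor (4.99 ± 0.382 CPM at 21% O2 and 14.3 ± 1.28 CPM at 1% O2, log2 fold change 1.52, edgeR adjusted p = 5.21e-06), Il1rap, the shared accessory chain of IL-1 family receptors (34.2 ± 2.48 CPM at 21% O2 and 69.9 ± 3.24 CPM at 1% O2, log2 fold change 1.03, edgeR adjusted p = 2.42e-06), and the kinase Map3k1 (log2 fold change 0.77, edgeR adjusted p = 8.15e-06). The lowest were Cd36, a scavenger receptor that works with Tlr2 and Tlr6 (log2 fold change -2.64, edgeR adjusted p = 0.000290), Tlr8 (log2 fold change -1.67, edgeR adjusted p = 0.000632) and Cd180, a Tlr4-related receptor of leukocytes (log2 fold change -1.59, edgeR adjusted p = 0.00194). Il1r1, the signaling receptor for IL-1 itself, was also called lower, at 415 CPM at 21% O2 and 266 CPM at 1% O2 (log2 fold change -0.64, edgeR adjusted p = 7.69e-06), and is named here after its values were seen. Tlr8 and Cd180 are known from leukocytes, and like Tlr1 and Tlr7 they fell while the leukocyte markers fell. The part of leukocyte RNA in them was not tested.

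Of 39 tested genes among 40 other NF-kB regulators, 5 were called higher and 5 lower, with a median log2 fold change of 0.00. With a replicate left out, 3 to 6 were called higher and 4 to 5 lower. The highest were Zc3h12a (Regnase-1), an RNase that degrades inflammatory mRNA (86.5 ± 15.8 CPM at 21% O2 and 164 ± 13.4 CPM at 1% O2, log2 fold change 0.92, edgeR adjusted p = 0.000162), the Tbk1-binding protein gene Tbkbp1 (log2 fold change 0.76, edgeR adjusted p = 1.03e-05) and the atypical IkB gene Nfkbid (log2 fold change 0.72, edgeR adjusted p = 0.0331). The lowest were Nlrc5, an activator of MHC class I genes (log2 fold change -1.38, edgeR adjusted p = 0.000506), the scaffold gene Card10 (log2 fold change -0.995, edgeR adjusted p = 0.000374) and Traf4 (log2 fold change -0.95, edgeR adjusted p = 3.18e-05). Among 14 receptors and ligands of the noncanonical arm, 9 could be tested, of which Cd40 was higher (log2 fold change 0.97, edgeR adjusted p = 0.000497) and Tnfrsf11a (RANK, log2 fold change -1.29, edgeR adjusted p = 0.00180) and the lymphotoxin receptor gene Ltbr (165 ± 3.66 CPM at 21% O2 and 100.4 ± 4.57 CPM at 1% O2, log2 fold change -0.71, edgeR adjusted p = 5.92e-06) were lower.

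A list of 44 known NF-kB target genes outside the members had 40 tested genes, with a median log2 fold change of 0.83. Of these 40, 22 were called higher (55%, against 18.9% of all genes) and 3 lower (7.5%, against 15.3%). The list was chosen with earlier results of these data known. The highest were Nos2, the inducible nitric oxide synthase (0.455 ± 0.0608 CPM at 21% O2 and 315 ± 11.3 CPM at 1% O2, log2 fold change 9.42, edgeR adjusted p = 8.57e-11), the granulocyte growth factor gene Csf3, and Lcn2, an iron-binding acute-phase protein (2.57 ± 0.959 CPM at 21% O2 and 60.8 ± 14.0 CPM at 1% O2, log2 fold change 4.56, edgeR adjusted p = 8.22e-07). Csf3 had 1, 1 and 5 counts at 21% O2 and 312, 545 and 453 at 1% O2, and no fold is given because the normoxic level is at the floor. The targets called lower were Tnf, a cytokine of macrophages above all (log2 fold change -1.40, edgeR adjusted p = 0.00503), the cyclin gene Ccnd1 (log2 fold change -1.22, edgeR adjusted p = 0.00321) and the adhesion molecule gene Vcam1 (137 ± 3.94 CPM at 21% O2 and 72.5 ± 3.82 CPM at 1% O2, log2 fold change -0.91, edgeR adjusted p = 1.78e-06). The list therefore moved in both directions, with more genes higher than lower.

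**Figure D5:**
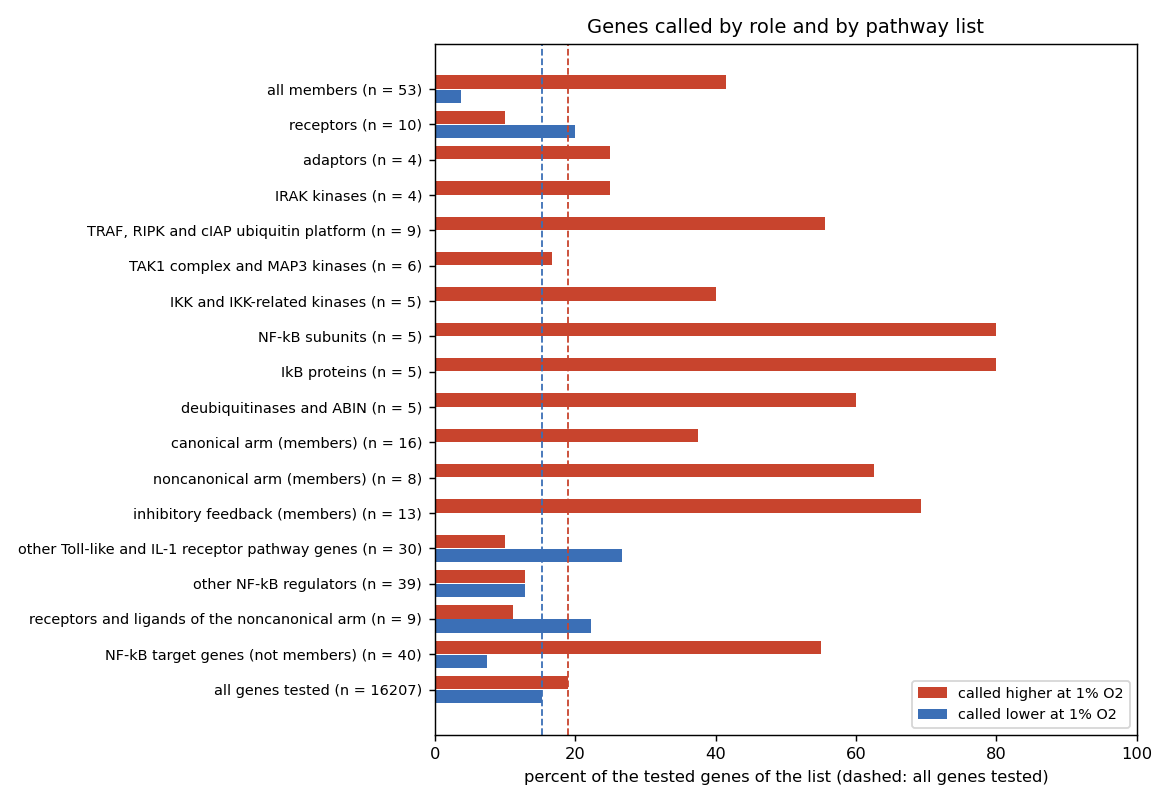
Percent of the tested genes of each role and each pathway list that were called higher or lower at 1% O2, with the number tested in parentheses and the shares over all genes tested as dashed lines. The subunits and IkB proteins have the highest shares called higher (80% each). The other Toll-like and IL-1 receptor pathway genes have the highest share called lower (26.7%). These are 8 genes, of a number that was 5 without hypoxic replicate 3.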

How the data were processed

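RNA of 6 PSC samples was measured, 3 per oxygen condition. The authors made poly(A) libraries, aligned reads to GRCm38 with STAR 2.6.1b and estimated counts with RSEM 1.3.1, and they deposited expected counts for 55426 features, of which 0 had a fraction. The annotation release and the strand setting are not given in the sources used here. Identifiers were named with GENCODE M21, in which 55240 were found and 181 were not, beside 5 transgene features.

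The expected counts were tested with edgeR 4.0.16 (limma 3.58.1, R 4.3.3), after filterByExpr and TMM scaling, by its quasi-likelihood F test, with p-values adjusted by Benjamini-Hochberg over 16207 genes. Genes were called at a fold beyond 1.5 and an adjusted p under 0.05, the thresholds of the study's methods. The standard error is the log2 fold change divided by the square root of F. Levels per kilobase use the union of exons. Ratios within a sample used no pseudocount, and a pseudocount of 0.5 counts was an alternative. The edgeR fit with and without the replicate block, DESeq2 and limma-voom were tested on simulated data, and the fits of summed counts were not. Replicates of a group differed by 5.68 to 22.5 chi-square units per degree of freedom over genes, more than sampling noise, so no library was counted as a repeat deposit of another.

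Values in every sample are given for members called at a fold of at least 2 and for the member with the highest CPM per kilobase of each role, and for further members where a sentence turns on them. Of each surrounding list, up to 3 highest and 3 lowest called genes with a mean of at least 1 CPM are named. Members and lists were chosen with earlier results of these data known. Alternatives were a replicate block, DESeq2 1.42.0 with and without it, limma-voom, other scalings, filters and thresholds, GC and length corrections, and each replicate left out. Summed counts of genes that share reads and shares of summed levels were added after the data were seen.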

Additional observations from a re-analysis of the deposited data

How the results depend on the processing

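Of the members called, 0 changed sign under the alternatives run. Cd14, Irak4, Map3k7, Ripk1, Tab3 and Tlr2, which were not called and had log2 fold changes near 0, changed sign in 1 to 7 alternatives, with values there between -0.051 and 0.040, and stayed uncalled. Across settings other than leaving out a replicate, 520 member results kept their side of the threshold, 9 of them with another sign, while 2 gained a call and 5 lost it. With a replicate left out 312 kept it, 10 of them with another sign, 3 gained a call and 3 lost it. The ratio of Tlr2 to Tlr4 ran from -0.19 to 0.01 with a replicate left out. Tirap was called higher under the strict filter (0.59), with the GC correction (0.62), and without normoxic or hypoxic replicate 3 (0.62 and 0.61). Traf2 was not called with DESeq2 (0.58, with or without the block), upper-quartile scaling (0.56), no filter (0.56), the length correction (0.54), or without normoxic replicate 3 (0.52) or hypoxic replicate 1 (0.56). Map3k14 was called lower without hypoxic replicate 1 (-0.59), and Tlr1 lost its call without hypoxic replicate 3 (-1.47).

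Same-numbered samples of both groups correlated by 0.142, 0.139 and 0.0378 in their deviations from the group means. Every normoxic sample correlated best with the hypoxic sample of its own number. As 1 of the 3 correlations was under 0.1, the samples were not treated as paired, and whether they are pairs is unresolved. With the replicate block 22 members were called higher and 2 lower, no call of a member changed, and with DESeq2 and the block 21 and 2.

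Tlr1 did not pass the strict filter, with which 1 member was called lower (1 receptor) and 2 adaptors higher. With the GC correction 2 adaptors, and with the length correction 2 receptors or ligands of the noncanonical arm, were called higher. At any fold, 33 members were higher and 5 lower, and by role 2 receptors were higher and 3 lower, 2 adaptors higher and 1 lower, 3 IRAK genes higher and 0 lower, 3 TAK1 complex genes higher and 1 lower, 5 IKK genes higher and 0 lower, 11 canonical genes higher and 1 lower, and 7 noncanonical genes higher and 1 lower. In the surrounding lists at any fold, 8 other Toll-like and IL-1 receptor pathway genes were higher and 11 lower, 14 other regulators higher and 12 lower, and 2 receptors or ligands of the noncanonical arm higher and 3 lower. At a fold of 2, 12 members were higher and 1 lower, and by role 1 receptor was higher and 1 lower, and 0 IRAK genes, 1 gene of the ubiquitin platform, 0 IKK genes, 3 canonical and 3 noncanonical genes were higher with 0 lower. In the surrounding lists at a fold of 2, 2 other Toll-like and IL-1 receptor pathway genes were higher and 4 lower, 0 other regulators higher and 1 lower, and 0 receptors or ligands of the noncanonical arm higher and 1 lower.

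With each replicate left out in turn, 21 to 23 members were called higher and 1 to 3 lower (1 without hypoxic replicate 3, 3 without hypoxic replicate 1), and by role 1 to 2 receptors were lower (1 without hypoxic replicate 3), 1 to 2 adaptors higher (2 without normoxic or hypoxic replicate 3), 0 to 1 TAK1 complex and 0 to 1 noncanonical genes lower (1 without hypoxic replicate 1), 5 to 8 other Toll-like and IL-1 receptor pathway genes lower (5 without hypoxic replicate 3) and 3 to 6 other regulators higher (3 without normoxic replicate 1). Other scalings moved the median of all genes by less than 0.1 on the log2 scale.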
